A study of Mus musculus with 9 samples.

Results

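The smooth muscle contractile genes described here are 10 genes taken by symbol from a table of 52381 mouse genes, namely Acta2, Actg2, Myh11, Myl9, Mylk, Tagln, Cnn1, Smtn, Lmod1 and Des. Each symbol occurred on a single row. Expression was measured by RNA sequencing of whole lung from 9 mice with acute lung injury (ALI) after lipopolysaccharide (LPS), an inflammatory molecule from the envelope of Gram-negative bacteria. The 4 mice of the LPS-ALI group had LPS injury alone, and the 5 mice of the TMAO group had LPS injury and were also treated with trimethylamine N-oxide (TMAO), a metabolite derived from gut bacteria. The sources used here do not give strain, age, doses or times. Every lung used here had LPS injury, and uninjured lungs were not analysed here. The values are FPKM, fragments scaled to gene length and to the size of the library, which allow levels of different genes to be set side by side. All 10 genes met the filter for testing, a level of 1 FPKM or more in 4 libraries or more, which 11817 genes met. Myh11 and Cnn1 reached 1 in 8 libraries and Lmod1 in 6, and the other members reached it in all 9.

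In the lung, smooth muscle forms a layer around the conducting airways and the walls of pulmonary arteries and veins, where its tone sets airway calibre and vascular resistance. Force comes from myosin sliding along actin filaments. A rise in calcium activates calmodulin and myosin light chain kinase, which phosphorylates the regulatory light chain and switches myosin on, while RhoA and its kinases restrain the phosphatase that switches it off. Most of the genes are transcribed under serum response factor and its partner myocardin, which bind a DNA element named the CArG box. Some of them, Mylk and Myl9 among them, are also expressed by other lung cells, and the kinase from Mylk is known for its part in the opening of endothelial junctions.

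RefSeq promoter windows on GRCm38.p6, from 250 bases before to 50 bases after the annotated start, were found for 7 of the 10 genes. They were Acta2, Myl9, Mylk, Cnn1, Smtn, Lmod1 and Des, and not Tagln, Myh11 and Actg2. The windows of Myl9 and Acta2 are shown because they were the 2 that held a CArG box or a CArG-like run, which has 1 C or G in the middle stretch of A and T. Capitals mark these runs. Both strands were covered, since the pattern reads the same on either strand, and no runs overlapped.
Acta2, chr19:34255324-34255623, minus strand: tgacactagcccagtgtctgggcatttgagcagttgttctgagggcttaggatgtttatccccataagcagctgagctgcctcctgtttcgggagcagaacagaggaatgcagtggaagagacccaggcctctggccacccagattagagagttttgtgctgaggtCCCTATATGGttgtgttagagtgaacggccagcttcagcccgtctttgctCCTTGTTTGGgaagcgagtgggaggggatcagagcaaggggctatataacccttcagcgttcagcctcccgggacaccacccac
Myl9, chr2:156775214-156775513, plus strand: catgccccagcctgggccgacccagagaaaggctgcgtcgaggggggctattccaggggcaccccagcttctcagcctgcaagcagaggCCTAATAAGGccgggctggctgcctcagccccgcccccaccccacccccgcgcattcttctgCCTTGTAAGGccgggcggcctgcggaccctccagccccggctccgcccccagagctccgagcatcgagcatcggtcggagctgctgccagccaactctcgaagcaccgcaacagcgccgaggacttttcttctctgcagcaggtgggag
In the Acta2 window the CArG-like runs begin at -84 and -34 from the start. In the Myl9 window a CArG box begins at -161 and a CArG-like run at -99. Among all 32851 windows of this length, 1.63% held a CArG box and 9.98% held a CArG box or a CArG-like run.

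Absolute depth was not recovered, and relative depth, read from the steps between low values, ran from 0.377 in TMAO replicate 5 to 1 in LPS-ALI replicate 3. All samples are labelled as lung, although platelets are named where RNA extraction is described. Alveolar type 2 cell markers, 8 genes of the gas-exchange epithelium, were present in every library. Their score, the mean log2(FPKM + 1) of a list minus that of the median tested gene of the library, lay between 2.73 and 5.78. A pair of libraries stood apart. In TMAO replicate 5 the median tested gene was at 31.3% of its mean in the other TMAO libraries, and in LPS-ALI replicate 4 the alveolar type 2 score was 2.73 against 4.67 or more in the other 8 libraries. The codes of these samples start with X for LPS-ALI replicates 3 and 4 and with B for the rest, and the sources used here do not say what the letters mean.

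Injured lungs with and without TMAO were compared gene by gene. None of the 10 smooth muscle contractile genes differed between the groups by more than the spread between mice. By limma with Benjamini-Hochberg adjustment 0 of the 10 genes and 0 of all 11817 genes passed an adjusted p of 0.05 (0% of those tested), and every member had an adjusted p of 0.998. At an unadjusted p under 0.05, limma gave 0 of the 10 members and 396 of all genes (3.35%), and on values relative to the median gene of each library 0 members and 852 of all genes (7.21%). Single-library values of the groups overlapped for all 10 members, as they did for all but 1.48% of the genes tested. The mean log2 level was lower in TMAO lungs for 8 of the 10 members, against 72.1% of all genes. The median gene of a library was itself 0.17 log2 units lower in TMAO lungs on average, and 0.075 higher without TMAO replicate 5. Relative to the median gene of each library 5 members were lower and 5 were higher, against 49.3% of all genes lower. The member differences below are given on this relative scale, in log2(FPKM + 1), which understates changes of low genes. In whole tissue, fewer smooth muscle cells and less RNA per cell cannot be told apart.

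**Figure D1:**
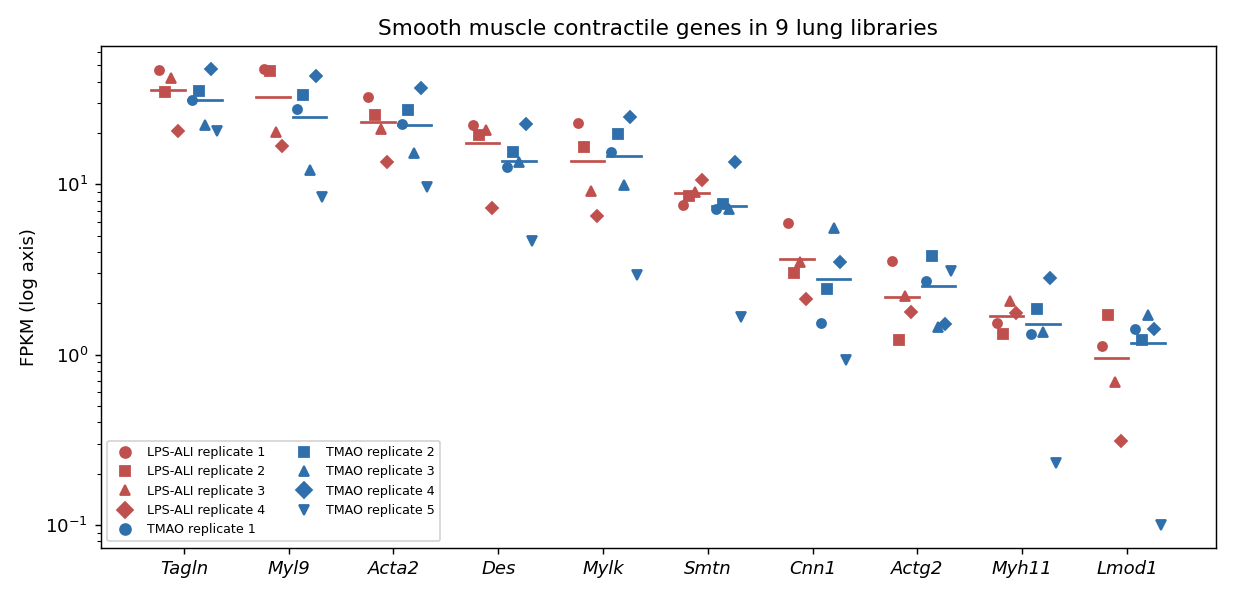
FPKM of the 10 smooth muscle contractile genes on a log axis, with a point for each of the 4 LPS-ALI (red) and 5 TMAO (blue) libraries and a line at each group mean. The groups overlap for every gene, and TMAO replicate 5 has the lowest value for 9 of the 10, as it has for 74.3% of all genes tested.

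Among the actins, Acta2 encodes smooth muscle alpha-actin, the main actin of the vascular and airway contractile filament. The gene lies at chr19:34241090-34255590 on the minus strand, on GRCm38 like all gene positions here. Its FPKM was 32.6, 25.6, 21.3 and 13.5 in LPS-ALI replicates 1 to 4. In TMAO replicates 1 to 5 it was 22.8, 27.4, 15.2, 37.0 and 9.63. The highest and the lowest value both lay in the TMAO group, on either side of the whole LPS-ALI range. The means were 23.2 ± 8.02 (SD, n = 4) and 22.4 ± 10.6 (SD, n = 5), and the relative log2 difference was 0.055 ± 0.26 (SE), with a 95% interval of -0.52 to 0.63. Actg2 (chr6:83512905-83536265, minus strand) encodes smooth muscle gamma-actin, best known from gut and other visceral muscle, and was the lower of the pair. Its FPKM was 3.55, 1.21, 2.22 and 1.79 after LPS alone, against 2.69, 3.79, 1.45, 1.52 and 3.11 after LPS and TMAO. It was the single member for which TMAO replicate 5 was not the lowest library. The relative difference of Actg2 was 0.31 ± 0.41 (SE), with the widest interval of the members, -0.60 to 1.22. On that scale TMAO replicate 5 stood alone, at 0.30. TMAO replicates 1 to 4 were at -2.01 to -0.76 and the LPS-ALI libraries at -1.73 to -0.85. Actg2 stood at 4.11% to 13.8% of the Acta2 level in 8 libraries and at 32.3% in TMAO replicate 5. Runs of 50 bases shared with transcripts of other genes were 0.326% of those of Acta2, all of them within Actg1 or its pseudogene, and none of those of Actg2.

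The myosin motor of smooth muscle is built from the heavy chain of Myh11 (chr16:14194535-14291372, minus strand) and light chains, of which Myl9 (chr2:156775420-156781658, plus strand) encodes the regulatory chain. Myh11 is regarded as the most smooth muscle restricted member, and its level was low. Its FPKM was 1.54, 1.33, 2.07 and 1.76 after LPS alone, against 1.32, 1.85, 1.36, 2.80 and 0.23 after LPS and TMAO. The 4 LPS-ALI libraries lay close together, inside the TMAO range. The relative difference of Myh11 was 0.00057 ± 0.18 (SE), with the narrowest interval of the members, -0.39 to 0.39. With a pseudocount of 0.1 in place of 1 that difference was -0.20. Myl9 was the second most abundant member, with 47.3, 46.5, 20.4 and 16.9 FPKM after LPS alone, against 27.6, 33.4, 12.2, 43.4 and 8.42 after LPS and TMAO. Within LPS-ALI the B-coded replicates 1 and 2 had more than 2 times the level of the X-coded replicates 3 and 4. The relative difference of Myl9 was -0.29 ± 0.37 (SE), the lowest of the members, with an interval of -1.10 to 0.53.

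Mylk (chr16:34745210-35002420, plus strand) encodes myosin light chain kinase, the enzyme that phosphorylates the regulatory light chain, in a short smooth muscle and a long non-muscle form that gene-level values do not separate. Its FPKM was 22.8, 16.5, 9.14 and 6.52 after LPS alone, against 15.4, 19.8, 9.88, 24.8 and 2.93 after LPS and TMAO. As for Myl9, LPS-ALI replicates 1 and 2 were above replicates 3 and 4. The group means were 13.7 ± 7.38 (SD, n = 4) and 14.6 ± 8.53 (SD, n = 5), and the relative difference was 0.14 ± 0.36 (SE), with an interval of -0.65 to 0.93. The kinase stood at 35.4% to 48.3% of the level of its substrate Myl9 in LPS-ALI lungs. In TMAO replicates 1 to 4 it stood at 55.9%, 59.4%, 81.0% and 57.2%, all above the LPS-ALI range, and in replicate 5 at 34.8%, below it. This ratio was looked at after the values were seen and was not tested. The longest transcript has 7824 bases for Mylk and 1128 for Myl9. Relative to the library median, the median protein-coding gene of 6 kb or more deviated from its mean over all libraries. It deviated by 0.037 to 0.086 log2 units in TMAO replicates 1 to 4 and by -0.11 to -0.040 in LPS-ALI libraries. For genes of 1 to 2 kb this was -0.21 to -0.060 and -0.067 to 0.13. The part of length in the ratio was not tested.

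Tagln, Cnn1, Smtn and Lmod1 encode actin-binding proteins of the contractile apparatus. Tagln (chr9:45929619-45936058, minus strand), for transgelin or SM22, an actin cross-linking protein, was the most abundant member, with 46.8, 34.8, 42.2 and 20.5 FPKM after LPS alone, against 31.3, 35.3, 22.2, 47.7 and 20.5 after LPS and TMAO. Its relative difference was -0.022 ± 0.28 (SE), with an interval of -0.64 to 0.60. Of the 50-base runs of its transcripts 58.4% lie on the opposite strand of other transcripts, nearly all of them of the antisense gene Gm48529. That gene had 0.10 to 0.88 FPKM, and with no strand setting stated the reads of the pair cannot be told apart. Cnn1 (chr9:22099216-22109630, plus strand), for calponin, which slows the myosin motor, had 5.91, 3.02, 3.48 and 2.11 FPKM after LPS alone, against 1.54, 2.43, 5.57, 3.49 and 0.93 after LPS and TMAO. TMAO replicate 3 was close to the highest LPS-ALI value while TMAO replicates 1 and 5 were below the lowest. The relative difference of Cnn1 was -0.18 ± 0.30 (SE), with an interval of -0.84 to 0.47.

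Smtn (chr11:3517523-3540612, minus strand) encodes smoothelin, which marks fully contractile smooth muscle. Its FPKM was 7.59, 8.53, 9.04 and 10.5 after LPS alone, against 7.20, 7.65, 7.18, 13.4 and 1.67 after LPS and TMAO. TMAO replicates 1 and 3 lay just below the LPS-ALI range, replicate 5 far below it and replicate 4 above it. The relative difference of Smtn was -0.24 ± 0.20 (SE), with an interval of -0.68 to 0.21. Lmod1 (chr1:135324807-135368065, plus strand) encodes leiomodin 1, which nucleates actin filaments in smooth muscle, and was the lowest member. Its FPKM was 1.12, 1.70, 0.69 and 0.31 after LPS alone, against 1.41, 1.22, 1.71, 1.41 and 0.10 after LPS and TMAO, where 4 values were close together and replicate 5 was the lowest of all. The relative difference of Lmod1 was 0.31 ± 0.25 (SE), with an interval of -0.25 to 0.87. As deposited its difference of 0.14 turned to -0.038 without LPS-ALI replicate 4.

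Des (chr1:75360329-75368579, plus strand) encodes desmin, the intermediate filament protein that ties the contractile units of muscle cells together and is also made by heart muscle and pericytes. Its FPKM was 22.4, 19.6, 20.9 and 7.30 after LPS alone, against 12.6, 15.5, 13.6, 22.6 and 4.67 after LPS and TMAO. LPS-ALI replicates 1 to 3 were above all TMAO libraries but replicate 4, while LPS-ALI replicate 4 was the second lowest of all 9. The means were 17.5 ± 6.92 (SD, n = 4) and 13.8 ± 6.42 (SD, n = 5), and the relative difference was -0.18 ± 0.31 (SE), with an interval of -0.86 to 0.49. Desmin stood at 48.5% to 98.3% of the Acta2 level, highest in LPS-ALI replicate 3 and TMAO replicate 3.

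**Figure D2:**
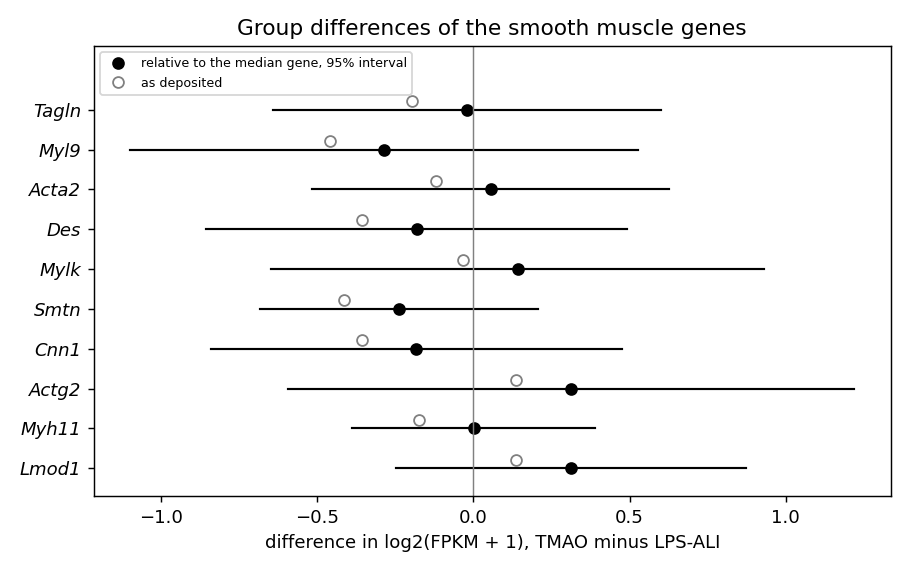
Difference between TMAO and LPS-ALI lungs in log2(FPKM + 1) for each of the 10 genes. Filled points with 95% limma intervals are relative to the median gene of each library, open points are as deposited, and every interval crosses 0.

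Over the 10 genes the relative differences ran from -0.29 to 0.31, with a median of -0.011 beside 0.0056 for all genes tested. As deposited, the median was -0.19 beside -0.17 for all genes. It was 0.0079 without TMAO replicate 5, where the median gene of a library was itself 0.075 higher in TMAO lungs. Without the X-coded libraries it was -0.45, a value that includes any shift of the median gene. The smooth muscle score, taken relative to that gene, differed by -0.21 without the X-coded libraries. The lowest bound of a 95% interval was -1.10, for Myl9, and the highest 1.22, for Actg2. For the other 8 members the interval lay within 1 unit of 0 on the log2(FPKM + 1) scale, which for low genes such as Lmod1 still allows FPKM differences of more than 2-fold. An exact two-sided permutation test of each gene over the 9 libraries used log2 values as deposited, not the relative ones. The permutation p ran from 0.421 to 0.968 over the members, where the smallest p these groups allow is 0.00794. On simulated libraries of the same number, the share of truly changed genes that limma called was 5% at 2-fold and 58% at 4-fold. These folds are of FPKM + 1, so for low genes they stand for larger folds of FPKM. The simulated spread was that of the values as deposited, drawn for each gene on its own. It held no shift shared by the genes of a library, so these shares do not carry over to the relative differences.

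The order of the levels was Tagln, Myl9, Acta2, Des, Mylk, Smtn, Cnn1, Actg2, Myh11 and Lmod1, from a mean of 33.5 FPKM over the 9 libraries down to 1.07. Neighbours in this order differed by more than 1 SD of their log2 gap at 3 places. Acta2 was above Des in 9 of 9 libraries, Mylk above Smtn in 8, and Smtn above Cnn1 in 9. Mylk and Smtn only just passed, with a mean log2 gap of 0.6468 and an SD of 0.6466. The other neighbours, such as Tagln and Myl9 or Des and Mylk, did not differ beyond their spread. Summed over the 10 genes, FPKM was 192, 159, 131 and 81.1 in LPS-ALI replicates 1 to 4 and 124, 148, 90.4, 198 and 52.1 in TMAO replicates 1 to 5. Acta2 held a nearly constant part of this sum, 16.1% to 18.7% in every library. Myl9 held 13.5% to 29.3% and Smtn 3.20% to 13.0%, with the highest Smtn share in LPS-ALI replicate 4. Tagln held 21.9% to 32.1% in 8 libraries and 39.2% in TMAO replicate 5.

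**Figure D3:**
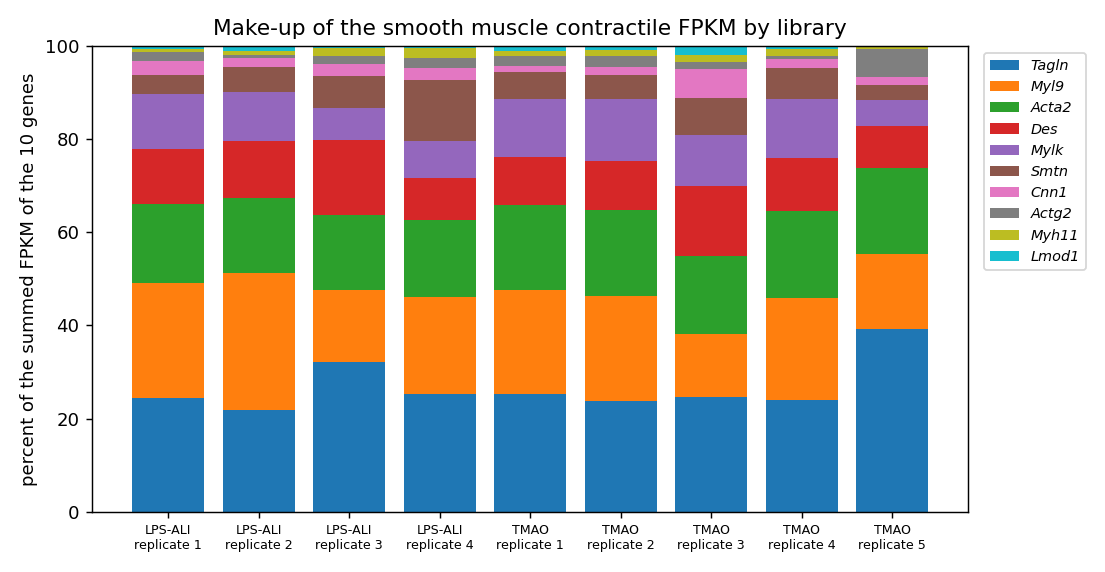
Share of each gene in the summed FPKM of the 10 genes, with 1 stacked bar per library. The Acta2 share stays between 16.1% and 18.7%, while Tagln and Actg2 take their largest shares in TMAO replicate 5.

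LPS-ALI replicate 4 had the lowest smooth muscle score, and the lowest FPKM of the 4 LPS-ALI libraries for 7 of the 10 members, as for 26.4% of all genes tested. The score was 0.55, 0.42, 0.40 and -0.29 in LPS-ALI replicates 1 to 4 and 0.35, 0.31, 0.081, 0.27 and 0.30 in TMAO replicates 1 to 5. The TMAO libraries thus lay between LPS-ALI replicate 4 and the other LPS-ALI libraries. The group means were 0.27 ± 0.38 (SD, n = 4) and 0.26 ± 0.11 (SD, n = 5), a difference of -0.0089. Without LPS-ALI replicate 4 the difference was -0.19, and without both X-coded libraries -0.21. In LPS-ALI replicate 4, Lmod1 was at 26.5% of its mean in the other LPS-ALI libraries, Des at 34.8%, Mylk at 40.4%, Myl9 at 44.3% and Acta2 at 50.9%. Myh11 and Smtn were at 107% and 126%, beside 108% for the median tested gene. The other 8 members were at or below 76.9%, a level that 29.9% of all tested genes shared.

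In TMAO replicate 5 the members spread by transcript length. The median protein-coding gene was at 89.7% of its mean in the other TMAO libraries where the longest transcript was under 1 kb, at 48.1% from there to 2 kb, at 30.6% up to 4 kb, and at 23.5% from 6 kb. Among the members, the short Actg2 and Tagln were at 132% and 59.9%, while the long Mylk and Myh11 were at 16.8% and 12.6%. Myl9, the shortest member at 1128 bases, was at 28.9%, below the median of its length class. Lmod1, with a transcript of 3948 bases, was at 6.96%, the lowest. In LPS-ALI replicate 4 the same classes ranged only from 99.4% to 113%. The part of length in the member differences was not tested beyond leaving the library out, which gave a score difference of -0.018.

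**Figure D4:**
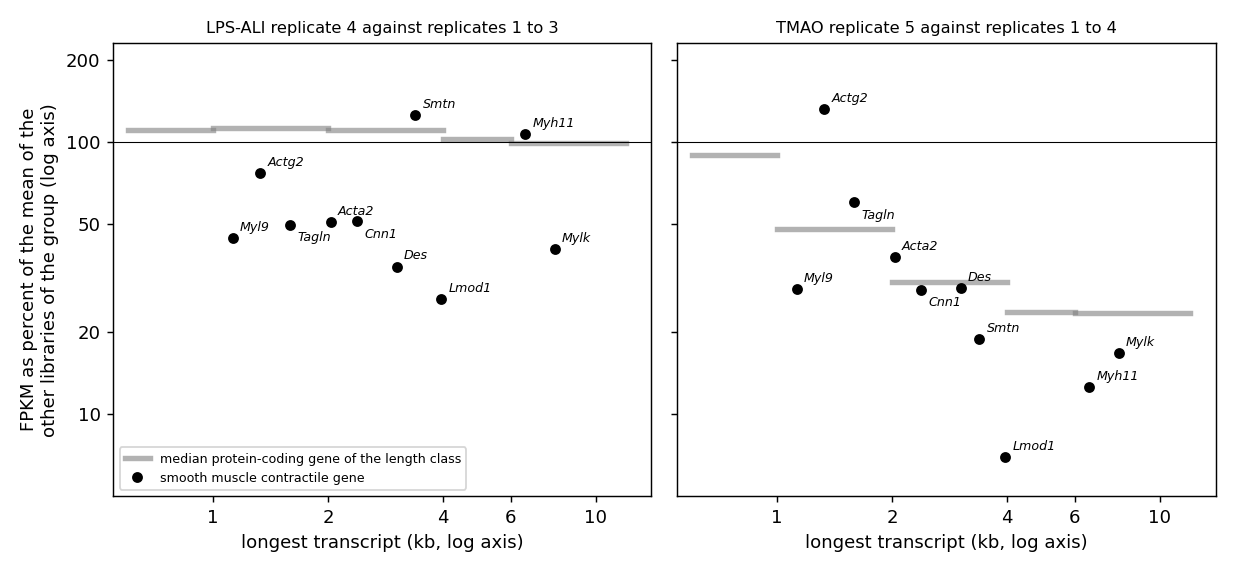
FPKM of each smooth muscle gene as percent of its mean in the other libraries of the group, against the length of its longest transcript, both on log axes, for LPS-ALI replicate 4 (left) and TMAO replicate 5 (right). Grey bars are medians of protein-coding genes by length class, which fall from 89.7% to 23.5% in TMAO replicate 5 and stay near 100% in LPS-ALI replicate 4.

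The partners of these genes were read from 5 lists of the wider pathway, in which limma with Benjamini-Hochberg adjustment again called 0 genes. Of 14 tested actin and myosin partners shared with non-muscle cells, 8 were below the median gene and 6 above, with a median relative difference of -0.13. Actb, cytoplasmic beta-actin, had 1393, 1247, 1204 and 1472 FPKM after LPS alone, against 756, 873, 834, 1196 and 274 after LPS and TMAO, where it lay below every LPS-ALI library. Its relative difference was -0.72 ± 0.22 (SE), and as deposited its unadjusted limma p was 0.0231 and its adjusted p 0.998. Actg1, cytoplasmic gamma-actin, had means of 1106 ± 594 and 588 ± 264 FPKM and a relative difference of -0.74 ± 0.33 (SE). It reached 1928 FPKM in LPS-ALI replicate 4, against 510 to 1019 in the other LPS-ALI libraries. As deposited its difference of -0.92 was -0.60 without that library, -0.56 without TMAO replicate 5 and -0.24 without both. The difference of Actb, -0.90 as deposited, was -0.56 without TMAO replicate 5. Leaving out that library also moved the mean difference of the library medians, from -0.17 to 0.075. Differences as deposited, here and in the lists below, include this shift, and relative differences do not. Myl6, the essential light chain of smooth and non-muscle myosin, was the most abundant of the list, with means of 1672 ± 400 and 1350 ± 239 FPKM.

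Of 16 genes of dense plaques, dense bodies and intermediate filaments, which anchor the contractile filaments, 6 were below the median gene and 10 above. Flna, the actin cross-linker filamin A, had means of 32.5 ± 3.21 and 22.1 ± 10.5 FPKM, and a relative difference of -0.53 ± 0.21 (SE). As deposited its difference of -0.70 was -0.32 without TMAO replicate 5. Pdlim7 had 130 FPKM in LPS-ALI replicate 4 against 23.8 to 32.3 in the other LPS-ALI libraries, and a relative difference of -0.74 ± 0.42 (SE). As deposited its difference of -0.92 was -0.38 without that library and -0.52 without TMAO replicate 5. Vim, the filament protein vimentin, had means of 206 ± 50.4 and 239 ± 73.5 FPKM.

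Of 17 tested genes of RhoA, calcium and relaxation signalling, 13 were above the median gene and 4 below, with a median relative difference of 0.25. The score of that list was 0.20 higher in TMAO lungs, 0.13 higher without LPS-ALI replicate 4 and 0.0062 higher without the X-coded libraries. Gucy1a1, a subunit of the nitric oxide receptor that relaxes smooth muscle, had 10.7, 10.3, 3.87 and 1.48 FPKM after LPS alone, against 10.8, 13.7, 8.03, 21.6 and 2.02 after LPS and TMAO. Its relative difference was 0.85 ± 0.45 (SE), and as deposited the difference of 0.68 turned to -0.18 without the X-coded libraries, which hold its 2 lowest LPS-ALI values. Calm2, for calmodulin, reached 1485 FPKM in LPS-ALI replicate 4, where the other 8 libraries lay between 124 and 280.

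Of 17 tested regulators around serum response factor, 6 were below the median gene and 11 above. Srf, the factor that binds the CArG box, had 15.8, 12.6, 9.98 and 13.0 FPKM after LPS alone, against 8.59, 7.67, 7.85, 13.0 and 0.61 after LPS and TMAO. All TMAO libraries but replicate 4 were below the lowest LPS-ALI value, and the relative difference of Srf was -0.80 ± 0.30 (SE), with a limma adjusted p of 0.998 as deposited. As deposited the difference of Srf was -0.97, and it was -0.44 without TMAO replicate 5. Klf2, a shear-induced factor of endothelium, had the smallest p of that list, with means of 173 ± 36.5 and 96.1 ± 57.6 FPKM and an unadjusted limma p of 0.0273, adjusted p 0.998. As deposited its difference of -1.05 was -0.70 without TMAO replicate 5. Myocd, for myocardin, did not reach the filter, with at most 0.32 FPKM in any library. Of 19 receptors for constrictors and dilators 8 were tested, 3 below the median gene and 5 above. Npr3, the natriuretic peptide clearance receptor, had 2.46, 2.66, 2.53 and 8.27 FPKM after LPS alone, against 10.9, 7.23, 8.85, 9.29 and 1.91 after LPS and TMAO. LPS-ALI replicate 4 was thus near the TMAO values, and TMAO replicate 5 was the lowest of all. The relative difference of Npr3 was 0.96 ± 0.32 (SE), with a limma adjusted p of 0.605. As deposited its unadjusted limma p was 0.108 and its adjusted p 0.998.

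List scores of neighbouring cell types moved with the smooth muscle score in LPS-ALI replicate 4, but single markers went both ways. Of the pericyte, fibroblast and endothelial markers, Cspg4, Col1a1 and Tek were at their lowest there, at 0.15, 0.74 and 0.66 FPKM. Kcnj8, Dcn and Cldn5 of the same lists were at their highest there, at 10.7, 137 and 255 FPKM. That library also had the lowest scores of pericyte markers, -1.10 against -0.30 or more in the other LPS-ALI libraries, of fibroblast markers, 0.26 against 1.59 or more, and of endothelial markers, 1.05 against 2.34 or more. For pericyte markers the mean score was -0.19 ± 0.67 (SD, n = 4) after LPS alone and 0.44 ± 0.41 (SD, n = 5) after LPS and TMAO, a difference of 0.63. It was 0.33 without LPS-ALI replicate 4 and 0.12 without both X-coded libraries. Of 9 tested pericyte markers 8 were above the median gene, none of them past the adjusted limma threshold. Of the endothelial markers 8 of 10, and of the alveolar type 2 markers 7 of 8, were above the median gene. The endothelial score difference was 0.52, and -0.069 without the X-coded libraries, and that of alveolar type 2 markers was 0.29 and -0.68. Summed FPKM of the 10 pericyte markers spanned 51.8 to 149 after LPS alone and 68.9 to 270 after LPS and TMAO. For fibroblast markers the summed FPKM was 233 to 615 and 118 to 876. Heart muscle markers, which can come from the sleeve of the pulmonary veins, summed to 8.64 to 57.6 FPKM after LPS alone and to 14.02 to 87.5 after LPS and TMAO. Skeletal muscle markers summed to 1.17 to 21.4 FPKM over all libraries, and 3 of the 10, Myh1, Myh2 and Myh4, were at 0 throughout. The part of these cell types in the smooth muscle values was not tested.

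**Figure D5:**
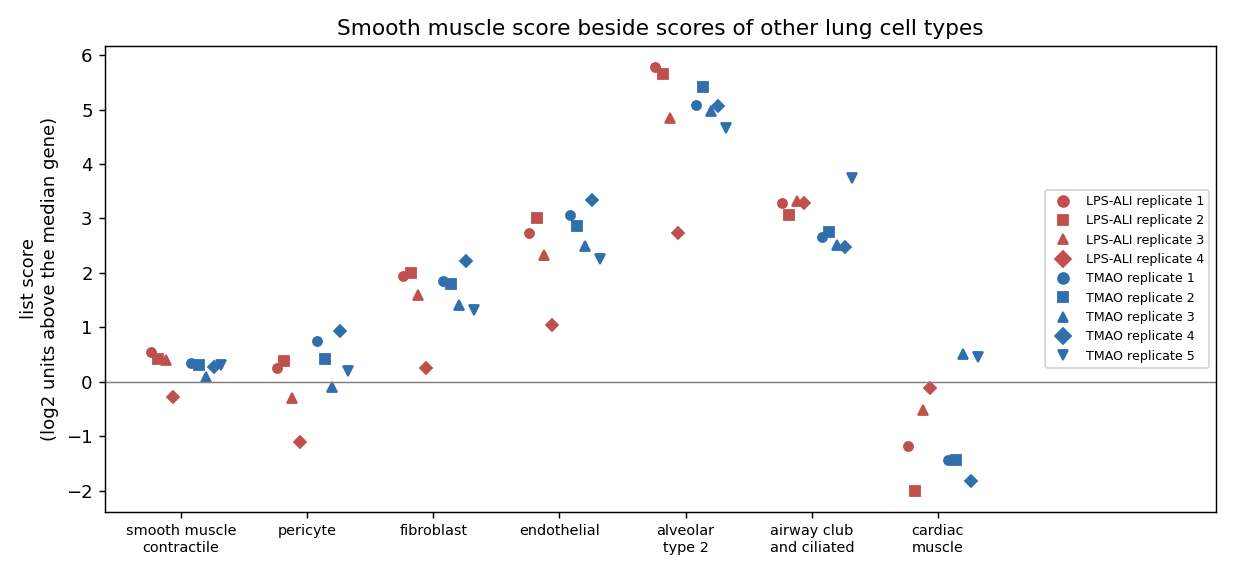
Scores of the smooth muscle genes and of 6 other marker lists, in log2 units above the median tested gene of the library, with a point for each of the 9 libraries. LPS-ALI replicate 4 has the lowest smooth muscle, pericyte, fibroblast, endothelial and alveolar type 2 scores.

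The members differed in how closely they followed each other over the 9 libraries. Pearson's r between a gene and the mean of the other 9 members, on relative log2 values and used only as a measure of likeness, was 0.91 for Acta2, 0.81 for Des and 0.80 for Tagln. It was 0.59 for Myl9, 0.58 for Mylk, 0.37 for Lmod1 and 0.11 for Cnn1, near 0 for Actg2 and Myh11, and -0.40 for Smtn. LPS-ALI replicates 1 and 4 were the libraries whose score lay farthest from the median score. Without them r was 0.71 for Acta2, 0.54 for Tagln, 0.27 for Des, 0.38 for Myl9 and -0.14 for Mylk. It was 0.17 for Myh11, 0.00077 for Smtn, -0.43 for Lmod1, -0.48 for Actg2 and -0.73 for Cnn1. These libraries were picked by the score itself, so leaving them out narrows its range and tends to lower r. No conclusion is drawn from the lower values. Over all 9 libraries r ran from -0.40 to 0.91, so the members did not move as 1 set. Among 6853 other genes with a mean FPKM of at least 5, the 8 most like the smooth muscle score were Elovl1, Cxcl15, Il16, Sh3glb2, Nkain4, Gm43085, Lcp1 and Sgce. Their r was 0.94 to 0.96 over 9 libraries and 0.65 to 0.84 over the 7. Elovl1, a fatty acid elongase, had means of 50.2 ± 23.8 and 41.0 ± 15.7 FPKM. Cxcl15, a chemokine of lung epithelium, had 498, 409, 194 and 20.9 FPKM after LPS alone, against 170, 322, 99.8, 318 and 125 after LPS and TMAO, with its lowest value in LPS-ALI replicate 4.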

How the data were processed

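Lung RNA of 9 mice was sequenced. Per the labels' protocols, ribosomal RNA was removed from Trizol-extracted RNA before library construction with a NEBNext Ultra II kit. The submitters' processing notes name fastp, HISAT2, SAMtools, featureCounts and the build mm10. Versions, annotation, strand setting and gene lengths: not given in the sources used here. FPKM values were deposited by the authors, with 1 column per library and no pooling. Groups follow the sample titles. The members and lists were chosen with earlier results of these data known.

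FPKM values are not counts, so log2(FPKM + 1) was tested for TMAO minus LPS-ALI by two-sided limma tests (limma 3.58.1, R 4.3.3) allowing a trend of variance with level. Benjamini-Hochberg adjustment ran over the 11817 genes that reached 1 FPKM in 4 or more libraries. Relative differences use values minus the median tested gene of the library. This centring, its combination with a pseudocount of 0.1, and the joint removal of LPS-ALI replicate 4 and TMAO replicate 5, were added after the data were seen. The other alternatives changed the pseudocount, filter, scaling, variance trend, replicate block, threshold or libraries. Genes named are all members, 2 per pathway list with the smallest p and the 1 with the highest mean, and the 8 most like the score. Of these, 1 gene is not reported here. Identifiers were matched to GENCODE M21 (52073 of 52381), on the assembly of mm10. Relative depth came from the commonest ratio of low values in 36 library pairs. Absolute depth was not recovered, so no counting intervals are given. No pair of libraries shared the values of more than 63 tested genes. The test was checked on simulated data. Python 3.11.15, pandas 2.3.3 and matplotlib 3.10.9 were used.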

Additional observations from a re-analysis of the deposited data

Results flagged for a closer look

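In a search of 50 pairs of a group and a measure (members, their sum and score, and the other lists) for a library far from the rest of its group, no smooth muscle gene and no smooth muscle score stood out. The score of airway club and ciliated cell markers in TMAO replicate 5 did, at 3.75 against 2.47 to 2.75 in the other TMAO libraries. Chance gives such a flag in about 1 of 20 groups. Short transcripts ran high as a class in TMAO replicate 5. The median gene under 1 kb was at 89.7% of its mean in the other TMAO libraries, against 31.3% for the median tested gene. The part of transcript length in the airway score was not tested.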

How the results depend on the processing

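Under 226 combinations of a member and an alternative, 0 passed the threshold, 200 kept the sign and 26 changed it, in 7 of the 10 members. Cnn1, Des and Myl9 kept theirs. The kept signs include alternatives that leave the estimate of a gene as it is, so its sign could not change. These were the other filters, the fit without a variance trend and the permutation test. The replicate block gave the same estimates as leaving out TMAO replicate 5, so they are not separate alternatives. The cause of the sign changes was not tested. Under median-of-ratios scaling Acta2, Tagln and Mylk had differences of 0.097, 0.029 and 0.15. With library centring Acta2, Myh11 and Mylk had 0.055, 0.00057 and 0.14, and with a pseudocount of 0.1 as well Acta2, Tagln and Mylk had 0.094, 0.020 and 0.16. Without mitochondrial genes Mylk had 0.056. Without LPS-ALI replicate 4 and TMAO replicate 5 together, Myh11 had 0.078, Mylk 0.12, Smtn 0.030, Pdlim7 0.016 and Calm2 0.21. Without the X-coded libraries Lmod1 had -0.21, Vim -0.064 and Gucy1a1 -0.18. The median over members was then -0.45 as deposited, and the score difference, relative to the median gene, -0.21. Leaving out each library in turn gave -0.35 to 0.13 for Acta2, -0.35 to 0.060 for Myh11, -0.023 to 0.32 for Actg2, -0.31 to 0.40 for Mylk and -0.038 to 0.37 for Lmod1. It gave 0 to 3 genes past the threshold, 1 when LPS-ALI replicate 3 and 3 when TMAO replicate 4 was left out, none of them a member. The mouse numbers did not pair the libraries (r of same-numbered libraries from -0.13 to 0.064, and no library correlated best with its own number). With the mouse number as a replicate block, which drops TMAO replicate 5, 0 genes passed, the score difference was -0.018 and the median over members 0.0079, and Acta2, Myh11 and Mylk had 0.13, 0.060 and 0.40.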

Other observations

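Heart muscle genes varied between libraries without regard to group. Myl7, an atrial myosin light chain, had 3.03, 0, 1.87 and 11.0 FPKM in LPS-ALI replicates 1 to 4 and 1.10, 3.62, 20.1, 1.15 and 12.3 in TMAO replicates 1 to 5. Tnni3, for cardiac troponin I, had its highest values in LPS-ALI replicate 3, at 21.7 FPKM, and in TMAO replicate 3, at 9.71. These were also the 2 libraries in which Des stood highest against Acta2, at 98.3% and 89.5%. Myl7 was likewise highest in TMAO replicate 3, but was only 1.87 FPKM in LPS-ALI replicate 3. In LPS-ALI replicate 4 and TMAO replicate 5, where Myl7 was 11.0 and 12.3 FPKM, Des was at 54.2% and 48.5% of Acta2. The part of heart muscle in the Des values was not tested. Actc1, the cardiac actin, reached 8.33 FPKM in LPS-ALI replicate 1, with 1.60 to 4.22 in all others.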
